A study of Mus musculus with 19 samples.

Results

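The CBFA2T2 ChIP-seq peaks that lie at the genes of small nuclear RNAs (snRNAs) in mouse neural stem cells are described here. Members were all genes that RefSeq types as snRNA on chromosomes 1 to 19, X and Y of mm10. A gene was called marked if the summit of a deposited peak, its position of highest signal, lay within 250 bp of the gene's span. The rule found 1004 genes, of which 7 were left out because their place in the annotation put them among genes on scaffolds. Thus 997 of 49714 placed genes of all biotypes were examined. Of these 997, 44 were marked in at least 1 list and 953 in neither.

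The cells were of the line NE-4C, neural stem cells of mouse brain that lack p53, in which one of the genes encoding histone H3.3, H3f3a, had been knocked out. In the H3.3WT group the knockout cells carried a stable transgene for wild-type H3.3 with an HA tag, and in the H3.3K27M group one for HA-tagged H3.3K27M, in which lysine 27 is replaced by methionine. The labels describe 19 samples, and 2 CBFA2T2 peak lists, 1 per genotype, were used, with 6920 peaks for H3.3WT and 8272 for H3.3K27M. Libraries of Cbfa2t2-knockout cells, of inputs and of the other antibodies were not analysed here, so signal of the antibody without its target was not measured. Whether each line is 1 clone is not given in the sources used here. Peak lists hold no RNA measurement, so the neural stem cell label could not be checked against marker genes, and the depth of each library is unknown. With 1 library per genotype no difference between genotypes was tested, and folds of the lists are given side by side.

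CBFA2T2 is a corepressor of the MTG (ETO) family, which is brought to DNA by other factors and binds histone deacetylase complexes. The snRNAs form the core of the splicing machinery. U1 pairs with the 5′ splice site, U2 with the branch point, and U5 aligns the exons and U6 forms the catalytic centre. U11 and U12 do the work of U1 and U2 in the minor spliceosome, U7 guides the 3′ end processing of histone mRNAs, and U3, typed as snRNA in the annotation, acts in the nucleolus on ribosomal RNA. RNA polymerase II makes U1, U2, U3, U5, U7, U11 and U12, whereas RNA polymerase III makes U6 and 7SK, the RNA that holds the elongation factor P-TEFb inactive. Promoters of both kinds share a proximal sequence element bound by the complex SNAPc. The mouse genome also holds many copies annotated as snRNA genes that are thought not to be transcribed.

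The sequences of a pair of marked sites are printed to show what kind of site was marked. No marked gene had a promoter window of its own among the 32851 windows of the RefSeq table for GRCm38.p6, but 2 marked genes lie whole inside the 300 bp window of a neighbouring gene. They are a gene of 166 bp in the chromosome 3 cluster (LOC115489800, within the window of Gm26232, chr3:96450389-96450688, plus strand) and Rnu7, the U7 gene (within the window of Grcc10, chr6:124741020-124741319, minus strand). In both lines the snRNA gene is in capitals and the flanking DNA in lower case.
LOC115489800: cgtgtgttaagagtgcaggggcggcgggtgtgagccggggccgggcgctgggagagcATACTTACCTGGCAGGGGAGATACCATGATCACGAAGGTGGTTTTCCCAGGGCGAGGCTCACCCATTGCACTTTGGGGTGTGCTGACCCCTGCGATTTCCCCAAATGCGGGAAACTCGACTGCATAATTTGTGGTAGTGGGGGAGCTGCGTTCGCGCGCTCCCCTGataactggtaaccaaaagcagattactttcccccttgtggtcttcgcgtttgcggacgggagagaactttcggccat
Rnu7: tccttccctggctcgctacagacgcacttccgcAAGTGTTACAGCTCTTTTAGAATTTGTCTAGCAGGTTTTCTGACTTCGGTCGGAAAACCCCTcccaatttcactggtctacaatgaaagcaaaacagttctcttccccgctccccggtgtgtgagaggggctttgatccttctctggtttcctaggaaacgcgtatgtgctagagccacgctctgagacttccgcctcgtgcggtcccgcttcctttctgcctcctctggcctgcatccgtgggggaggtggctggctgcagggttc
The first gene fills bases 58 to 223 of its window, and its summits fell on base 204 in H3.3WT and base 237 in H3.3K27M, near the end of the gene in the direction printed. Rnu7 fills bases 34 to 95, and its summits fell on bases 60 and 89, both inside the gene. The letters ACTTACCTG, part of the stretch with which U1 pairs with a 5′ splice site, begin at base 60 of the first window and were found on either strand in 0.265% of all windows. LOC115489800 carries no class name in its symbol, and the match describes its letters only.

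Promoter motifs were searched as letters on both strands of these windows, and their matches do not overlap each other. The core of the proximal sequence element (ACCNTNA) began at base 80 of the LOC115489800 window, inside the gene, and is present in 32.4% of all windows. The same window held GGGCGG, the GC box, at base 19 (35.7% of windows) and CCCANNNTG, part of the site of the activator ZNF143, at base 126 on the minus strand (21.0%). The Rnu7 window held CCAAT at base 97, next to the end of the gene (37.4%). TATAAA (13.6% of windows), the octamer ATGCAAAT (1.74%) and ACTACA, the other ZNF143 part (10.3%), were in neither window. The windows were those of the neighbouring genes. In the direction printed they held 57 and 33 bases before the snRNA gene and 77 and 205 after it. The annotation gives no strand for the snRNA genes. The U1 stretch of LOC115489800 was found in the direction printed. If that is the direction of the gene, the window holds only 57 bases before it. Much of both promoters may lie outside the windows, and no match is read here as a promoter element. The motifs absent here may therefore still be present in those promoters.

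A CBFA2T2 summit lay at 42 of 997 snRNA genes in H3.3WT (4.21%, 95% Wilson interval 3.13 to 5.65) and at 43 in H3.3K27M (4.31%, 3.22 to 5.76). The intervals cover counting error over genes only. Over all genes the shares were 14.1% in H3.3WT and 16.6% in H3.3K27M, but a short gene offers a smaller target. Among genes of other biotypes of at most 400 bp, a limit that also holds for every snRNA gene, the shares were 1.98% and 2.66%. The snRNA share thus exceeded that of other short genes and lay below that of all genes, and it came from a small set, since 41 genes were marked in both lists, 1 only in H3.3WT and 2 only in H3.3K27M.

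The genes whose symbols name an RNA class were nearly all marked. Of 17 such genes 14 were marked in H3.3WT (82.4%, 59.0 to 93.8) and 15 in H3.3K27M (88.2%, 65.7 to 96.7). Of the 980 genes with no class in their symbol, 28 were marked in each list (2.86%, 1.98 to 4.10). All 14 genes named for U1, U2, U3, U5, U7, U11 and U12 were marked in both lists. Of the 2 genes named for the RNA polymerase III products U6 and 7SK, Rn7sk was marked in H3.3K27M only and Rnu6 in neither list. A contrast between the polymerases cannot be drawn from 2 genes, and none was tested.

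The 4 named U1 genes carried peaks of 10.8 to 16.8 fold in H3.3WT and 9.55 to 23.5 fold in H3.3K27M. The fold is the authors' enrichment of ChIP signal over background at the summit, and the −log10 q is their adjusted significance of the peak, both describing peaks within a list. Rnu1a1 on chromosome 11 had 16.8 fold in H3.3WT against 23.5 in H3.3K27M, with −log10 q of 63.5 and 125. Rnu1b1, Rnu1b2 and Rnu1b6 on chromosome 3 had 12.1, 11.7 and 10.8 fold in H3.3WT, and in H3.3K27M 9.55, 11.2 and 11.2 fold. Rnu1a1 was thus the highest of the 4 in both lists. Rnu2-10, the only named U2 gene, carried 17.6 fold in H3.3WT against 13.2 in H3.3K27M. Rnu5g, a U5 gene, carried 7.33 and 8.91 fold, the lowest of these 3 classes in each list.

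The highest significance among snRNA genes was at named U3 genes, of which there are 5. Rnu3b1 reached a −log10 q of 103 in H3.3WT, the highest there, and Rnu3b4 reached 132 in H3.3K27M, the highest there. Folds of the 5 genes ran from 9.30 (Rnu3a) to 20.4 (Rnu3b3) in H3.3WT, and from 9.73 (Rnu3a) to 22.0 (Rnu3b3) in H3.3K27M. The largest gap between the lists was at Rnu3b2, with 9.33 fold in H3.3WT in a peak 435 bp wide and 20.3 fold in H3.3K27M in one 713 bp wide. At the other 2, Rnu3b1 had 17.7 and 19.4 fold and Rnu3b4 16.8 and 20.6 fold. At all 5 the H3.3K27M value was the higher one. This was not tested, since there was 1 library per genotype.

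The single genes of the minor spliceosome, of histone mRNA processing and of transcription control follow. Rnu11, for the minor-spliceosome RNA that reads the 5′ splice site, had 14.1 fold in H3.3WT against 10.9 in H3.3K27M. Rnu12, for the RNA that reads its branch point, had 8.21 and 8.92 fold, and its H3.3WT summit lay farthest from its gene of all, at 196 bp. Rnu7 had 6.13 fold in H3.3WT against 11.1 in H3.3K27M. Rn7sk, the longest of the 997 genes with 332 bp, had a peak in H3.3K27M alone, at 4.49 fold with a −log10 q of 7.99 and its summit 35 bp from the gene. The nearest H3.3WT summit was 66206 bp away. Rnu6 on chromosome 17 had no summit within 51804 bp in H3.3WT or 51866 bp in H3.3K27M. Snord73b, typed as snRNA although its name is that of a nucleolar RNA, had none within 1939 and 1955 bp. How the authors placed reads that match several copies is not given in the sources used here, so the values of near-identical copies are uncertain and may share reads.

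**Figure D1:**
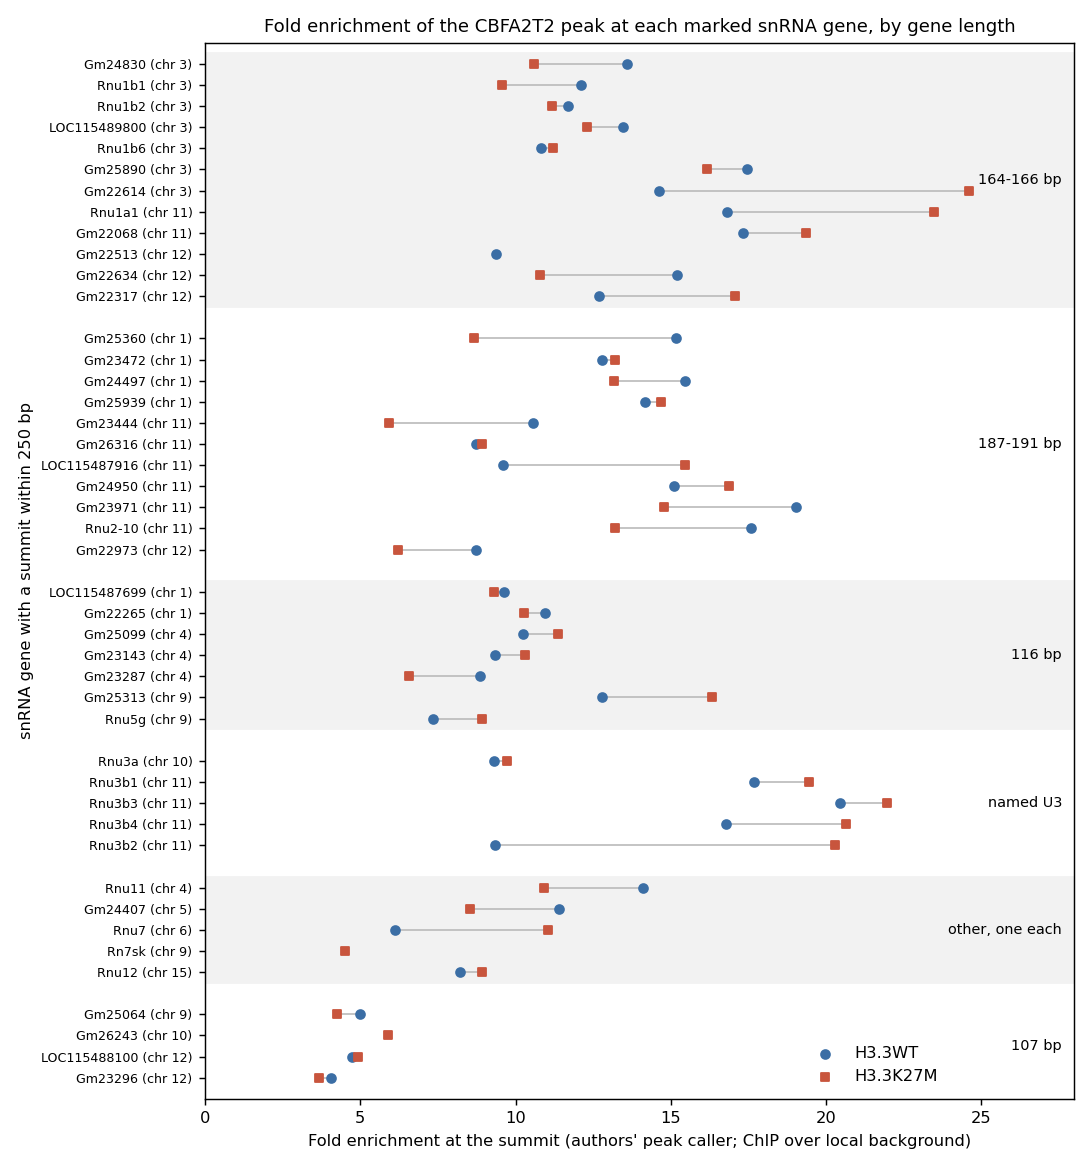
Fold enrichment of the CBFA2T2 peak at each of the 44 marked snRNA genes (x axis, in fold; blue points H3.3WT, red points H3.3K27M, 1 library each), grouped by gene length or class. The 4 genes of 107 bp lie between 3.68 and 5.90, and most of the others lie above 8 in both lists.

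Because 29 of the 44 marked genes have no class in their symbol, they were also ordered by length, which differs between snRNA classes. The length groups were chosen after the values were seen. Among 788 genes of at most 115 bp, 5 were marked in H3.3WT (0.635%, 0.271 to 1.48) and 6 in H3.3K27M (0.761%, 0.349 to 1.65). Among 209 genes of 116 bp or more, 37 were marked in each list (17.7%, 13.1 to 23.4). Since the length limit was placed with these values in view, the counts are a description. The most common length was 107 bp, that of Rnu6, with 383 genes, of which 3 were marked in H3.3WT, against 4 in H3.3K27M. Of the 336 genes below 107 bp Rnu7 alone was marked.

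Marked copies were frequent at a few lengths. Of 9 genes of 116 bp, the length of Rnu5g, 7 were marked in both lists (77.8%, 45.3 to 93.7). Of 13 genes of 191 bp, none of which has a class in its symbol, 10 were marked in both (76.9%, 49.7 to 91.8). Of 54 genes of 164 to 166 bp, the lengths of the 4 named U1 genes, 12 were marked in H3.3WT (22.2%, 13.2 to 34.9) and 11 in H3.3K27M (20.4%, 11.8 to 32.9). The unmarked copies of the first 2 lengths were far from any peak. The 2 unmarked genes of 116 bp (Gm24043 and Gm23102) had no summit within 35048 bp, and the 3 of 191 bp (Gm25813, Gm25202 and Gm26108) none within 340262 bp.

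**Figure D2:**
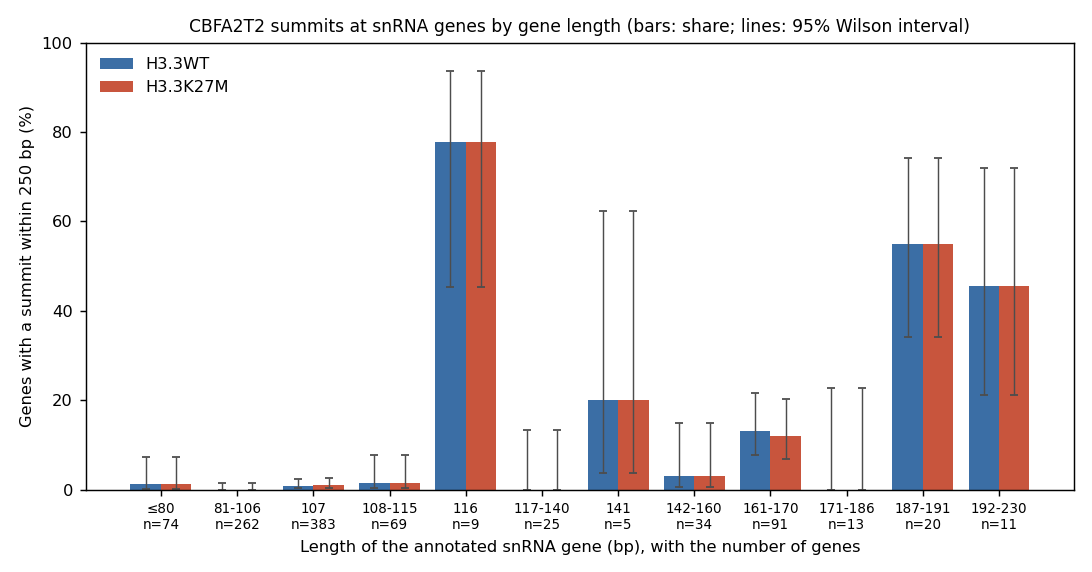
Share of snRNA genes with a CBFA2T2 summit within 250 bp (y axis, %) by length of the annotated gene (x axis, bp, with the number of genes), in H3.3WT (blue) and H3.3K27M (red); lines are 95% Wilson intervals. The share is highest at 116 bp (77.8%) and 187 to 191 bp (55.0%) and is near 0 at 107 bp; Rn7sk, alone at 332 bp, is not drawn.

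Of the 3 main length groups, the genes of 116 bp had the lowest median fold in both lists. The 7 genes of 116 bp had 7.33 to 12.8 fold in H3.3WT (median 9.62) and 6.57 to 16.3 fold in H3.3K27M (median 10.3). The 12 genes of 164 to 166 bp had 9.38 to 17.4 fold in H3.3WT (median 13.5), and the 11 marked in H3.3K27M had 9.55 to 24.6 fold (median 12.3). The 11 marked genes of 187 to 191 bp had 8.72 to 19.04 fold (median 14.2) and 5.94 to 16.9 fold (median 13.2). The ranges of the groups overlap one another within each list, and no difference between them was tested. The highest fold of any snRNA gene was 24.6, at Gm22614 of 165 bp in H3.3K27M, where H3.3WT had 14.6.

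The 4 marked genes of 107 bp stood below all of these groups. Gm25064 had 4.97 fold in H3.3WT against 4.25 in H3.3K27M, LOC115488100 had 4.72 and 4.91, Gm23296 had 4.07 and 3.68, and Gm26243 had a peak in H3.3K27M alone, at 5.90 fold. Their −log10 q lay between 2.67 and 6.74. In H3.3WT the other 39 marked genes all had at least 6.13 fold, and in H3.3K27M the 39 others had at least 4.49 fold, the value of Rn7sk. None of these 4 genes had a summit within 1 kb of the end of a protein-coding gene.

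Most marked genes sat in small genomic clusters. With neighbours at most 50 kb apart, 34 clusters of 2 or more snRNA genes held 95 genes, of which 33 were marked, whereas 11 of the 902 genes outside clusters were marked. In 8 clusters 2 or more genes were marked, and these held 38 genes with 32 marked. In 5 of the 8 every gene was marked. The 25 clusters with no marked gene held 55 genes, and 50 of these were at most 115 bp long. Marked genes lay on 10 chromosomes, with 12 on chromosome 11 and 7 on chromosome 3, and none of the 72 genes on chromosome X was marked.

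The cluster with the most marked genes was chr3:96328425-96488893, in which 7 of 8 genes of 165 or 166 bp were marked, among them Rnu1b1, Rnu1b2 and Rnu1b6. Folds ran from 10.8 (Rnu1b6) to 17.4 (Gm25890) in H3.3WT and from 9.55 (Rnu1b1) to 24.6 (Gm22614) in H3.3K27M. Gm24830 (13.6 and 10.6 fold) and LOC115489800 (13.5 and 12.3 fold), whose window is printed above, completed the set. The unmarked Gm24136 lay 20445 bp from the nearest H3.3WT summit and 20532 bp from the nearest H3.3K27M summit, well away from the peaks of its neighbours.

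A second cluster, chr11:87422867-87471582, lies inside Tex14, a gene of germ cell bridges, and held 6 marked genes of 7. They are Rnu1a1, Gm22068 of 164 bp (17.3 fold in H3.3WT against 19.4 in H3.3K27M) and the 4 Rnu3b genes. The median fold of the 6 was 17.1 in H3.3WT and 20.5 in H3.3K27M, and at each of the 6 the H3.3K27M value was the higher one. The seventh gene, Gm23137 of 107 bp, lay between them and was 1271 bp from the nearest H3.3WT summit and 1240 bp from the nearest H3.3K27M summit. An unmarked gene thus stood between marked ones.

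Another chromosome 11 cluster, chr11:101604850-101658424, held 5 genes of 187 to 191 bp, all marked in both lists. Besides Rnu2-10 they were Gm26316 (8.72 fold in H3.3WT against 8.91 in H3.3K27M), LOC115487916 (9.60 and 15.5), Gm24950 (15.1 and 16.9) and Gm23971 (19.04 and 14.8). In H3.3WT they spanned the whole range of the 187 to 191 bp group, and 3 of the 5 were higher in H3.3K27M. The cluster chr1:72226240-72255198 held 4 genes of 191 bp, again all marked. Gm25360 had 15.2 fold in H3.3WT against 8.65 in H3.3K27M, while Gm23472 (12.8 and 13.2), Gm24497 (15.5 and 13.2) and Gm25939 (14.2 and 14.7) were closer between the lists.

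Genes of 116 bp formed 2 fully marked clusters. In chr4:117189942-117210959 Gm25099 had 10.2 and 11.4 fold, Gm23143 had 9.33 and 10.3 fold and Gm23287 had 8.85 and 6.57 fold, in H3.3WT and H3.3K27M. In chr9:65196572-65201841 Rnu5g lay beside Gm25313, which had 12.8 fold in H3.3WT against 16.3 in H3.3K27M. The remaining marked genes of this length stood alone, namely Gm22265 inside Hhat (10.9 and 10.3 fold) and LOC115487699 by Alyref2 (9.62 and 9.32 fold). In each list the highest fold at this length was at Gm25313.

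On chromosome 12, chr12:54696782-54738622 held 7 genes of 164 bp with 3 marked. Gm22634 had 15.2 fold in H3.3WT against 10.8 in H3.3K27M, and Gm22317 had 12.7 and 17.1. Gm22513 was marked in H3.3WT only, at 9.38 fold, but a wide H3.3K27M peak of 2022 bp (12.8 fold) also overlapped it. The summit of that peak was 27 bp from an end of Eapp, so the gene counts as unmarked in that list by the position of the summit, not for want of a peak. LOC115488065, Gm25679, Gm26444 and LOC115488077 were unmarked. The cluster chr12:52603788-52604591 held LOC115488100 and Gm23296, the pair of 107 bp genes given above.

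**Figure D3:**
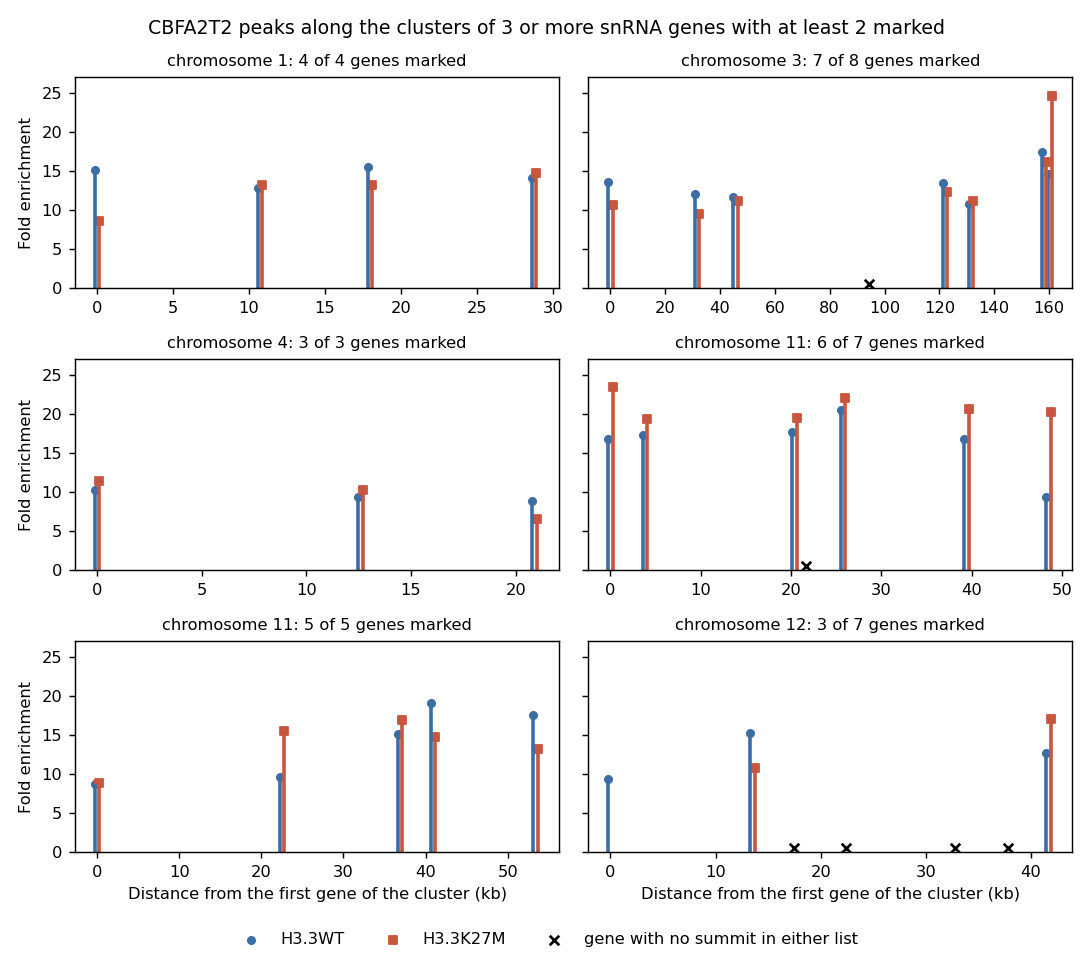
Position of snRNA genes within the 6 clusters of 3 or more genes with at least 2 marked (x axis, kb from the cluster's first gene) and fold enrichment of the CBFA2T2 peak at each (y axis; blue circles H3.3WT, red squares H3.3K27M, shifted sideways for legibility). Crosses at the bottom are unmarked genes, which stand between marked ones, as Gm23137 does among the 6 marked genes of the Tex14 cluster.

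Within the spans of the 8 clusters nearly every peak had its summit within 250 bp of an snRNA gene. The spans begin and end at snRNA genes, with 250 bp added on each side, and nearness does not assign a peak to a gene. At LOC115487916 and Gm22513 the summit also lay within 1 kb of the end of a protein-coding gene. In H3.3WT 32 of 33 peaks there were at a marked gene, and in H3.3K27M 31 of 33. The exceptions all lay in the chromosome 3 cluster. One, near Gm26654, was present in both lists at 4.56 fold in H3.3WT (chr3:96402031-96402353) and 4.98 fold in H3.3K27M, and one near Gm10685 was present in H3.3K27M at 3.49 fold (chr3:96458097-96458415). All 3 had lower folds than any marked gene of that cluster.

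Outside clusters with 2 or more marked genes, Gm23444 (10.6 fold in H3.3WT against 5.94 in H3.3K27M) and Gm22973 (8.73 and 6.22) were the other marked genes of 191 bp. Gm24407 of 141 bp overlapped an end of Sirt4, had 11.4 and 8.53 fold, and was the only marked one of the 5 genes of that length. Its neighbour Gm24265, of the same length, was 638 bp from the nearest H3.3WT summit and 662 bp from the nearest H3.3K27M summit. The peak at Gm24407 nevertheless covered the whole of Gm24265 in both lists (chr5:115489254-115490699 in H3.3WT, chr5:115489277-115490688 in H3.3K27M). Gm24265 thus counts as unmarked by the position of the summit, not for want of a peak. At Gm23444, Gm22973 and Gm24407 the H3.3WT value was the higher, as at Rnu11, Gm22265, LOC115487699 and Gm25064, which also lay outside such clusters. Of the remaining ones, Rnu7, Rnu12 and Rnu3a were higher in H3.3K27M, and Rn7sk and Gm26243 were marked in H3.3K27M only. No difference was tested.

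Counted by summit, each marked gene had a different peak. The 42 and 43 genes had 42 and 43 distinct peaks, and no summit lay within 250 bp of more than 1 snRNA gene. A peak can still cover a second snRNA gene, as at Gm24407, or lie at the end of a protein-coding gene. The summit lay inside the gene at 20 genes for H3.3WT and 24 for H3.3K27M, and within 100 bp of it at 40 and 42, within limits that the 250 bp rule sets. Of the marked genes, the summit farthest from its gene in either list was that of Rnu12 (196 bp in H3.3WT against 64 in H3.3K27M), then Gm23296 (138 and 118 bp) and Gm22317 (96 and 0 bp). The unmarked genes nearest to a summit of either list were Gm25541 (294 bp in H3.3WT against 272 in H3.3K27M), Gm24019 (296 and 7972 bp) and Gm24535 (839665 and 583 bp). Between the lists the summit at the 41 genes marked in both moved by a median of 36 bp (1 to 199), where the median over all shared peaks was 43 bp.

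Peaks at snRNA genes ranked high in each list without being among its strongest. Median folds were 11.9 in H3.3WT and 11.1 in H3.3K27M, where the medians of all peaks were 6.21 and 5.63. Of the 42 peaks 38 were above the list's median and 33 in its upper quartile in H3.3WT, and of the 43 peaks 39 and 35 in H3.3K27M. Median −log10 q was 35.7 and 42.2, against 9.64 and 9.48 over all peaks. No snRNA peak reached the top 1% of folds, which began at 31.4 for H3.3WT and 31.7 for H3.3K27M. The genes of 107 bp and Rn7sk were among those outside the upper quartile.

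Peaks at snRNA genes were also wide for their strength. Their median width was 880 bp in H3.3WT and 846 bp in H3.3K27M, where all peaks had medians of 498 and 535 bp. Among peaks of the upper quartile of fold alone, the medians were 678 and 711 bp over all peaks, and 901 and 929 bp for the 33 and 35 snRNA peaks. These widths describe peaks of 1 library each.

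**Figure D4:**
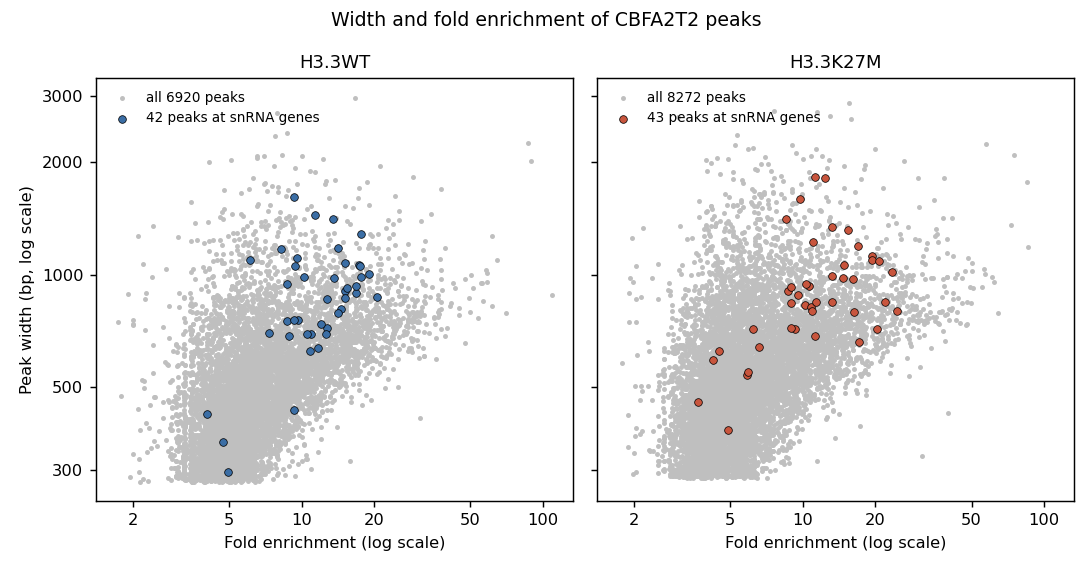
Width (y axis, bp, log scale) against fold enrichment (x axis, log scale) of all CBFA2T2 peaks (grey) and of the peaks at snRNA genes (coloured) in H3.3WT (left) and H3.3K27M (right). Peaks at snRNA genes lie mostly above the list medians of 498 and 535 bp in width, and none lies among the highest folds.

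The snRNA peaks recurred between the lists. All 42 peaks in H3.3WT overlapped a peak of the H3.3K27M list by at least 1 bp, and 41 of 43 in H3.3K27M overlapped a peak of the other, where 79.4% and 66.3% of all peaks did. With summits required to lie within 100 bp of each other, 32 peaks of each list were shared. The snRNA peaks were also stronger than most, and the part of strength in this share was not tested. At the 41 genes marked in both lists, the H3.3K27M fold was the higher one at 22 (53.7%), where it was higher at 46.4% of all shared peaks. By group, it was higher at 5 of 5 named U3 genes, 4 of 7 genes of 116 bp, 5 of 11 of 164 to 166 bp and 5 of 11 of 187 to 191 bp.

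Of the 44 marked genes 37 had no end of a protein-coding gene within 1 kb of a summit. The other 7 were LOC115487699 by Alyref2, Gm24407 by Sirt4, Rnu7 by Grcc10, Rnu3a by Gtf3c6, LOC115487916 by Rdm1, Gm22513 by Eapp and Rnu12 by Poldip3. At these 7 a peak of the neighbouring gene and one of the snRNA gene cannot be told apart. In all, 10 marked genes overlapped a protein-coding gene, 6 of them inside Tex14.

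Other short RNA biotypes are given for comparison. Of 403 tRNA genes 46 were marked in H3.3WT (11.4%) and 72 in H3.3K27M (17.9%), at median folds of 4.81 and 4.56, and 32.6% of those marked in either list were marked in both, where 93.2% of the snRNA genes were. Of 1330 snoRNA genes, the kind of RNA to which U3 belongs by function, 8 and 6 were marked, and of 1228 miRNA genes 25 and 31. The snRNA genes had the highest median folds of the biotypes named here in both lists. No test was made of these differences, which rest on 1 library per genotype.

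Genes for proteins that make, assemble or bind snRNAs were examined beside the RNA genes. Of 61 such genes, from a list chosen by function, 45 had an H3.3WT summit and 44 an H3.3K27M summit within 1 kb of a gene end, where 24.8% and 28.6% of all protein-coding genes did. Among transcription factors of snRNA genes, 3 of 5 SNAPc subunit genes were marked in H3.3WT and 2 in H3.3K27M. Snapc2 had 10.1 and 6.73 fold, Snapc5 5.26 and 9.31 fold, and Snapc1 7.22 fold in H3.3WT alone. All 3 genes for the factors that recruit RNA polymerase III to such promoters were marked in both lists, with Bdp1 at 16.2 and 14.2 fold, Tbp at 6.75 and 9.80 fold and Brf2 at 5.40 and 7.83 fold. So were the 3 genes for activators, with Zfp143, whose product binds many snRNA promoters, at 22.7 and 10.6 fold, Sp1 at 7.06 and 6.17 fold and Pou2f1 at 2.98 and 7.55 fold. The little elongation complex, which serves RNA polymerase II at snRNA genes, had 3 and 2 of 5 genes marked, led by Ice1 at 19.4 and 14.4 fold, with Ell2 at 5.37 and 4.06 fold and Ell at 4.999 fold in H3.3WT alone.

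Genes for proteins that bind U6 or 7SK were marked although the genes Rnu6 and Rn7sk were unmarked in H3.3WT. Of 13, 10 were marked in H3.3WT and 12 in H3.3K27M. Tut1, which adds uridines to U6, had 9.62 and 16.2 fold, Lsm4, a subunit of the ring on the U6 end, 13.5 and 9.06 fold, and Larp7, which binds the 7SK end, 10.4 and 10.6 fold. Of the 5 genes of snRNA export and import 3 were marked in each list, with Ncbp2 of the cap-binding complex at 16.5 and 19.1 fold, Tgs1, which trimethylates the cap, at 7.23 and 6.40 fold and Ncbp1 at 5.19 and 4.79 fold. The SMN complex, which loads the Sm ring, had 7 of 10 genes marked in H3.3WT and 4 in H3.3K27M. Strap had 8.72 and 11.3 fold, and Gemin7 (9.70 fold) and Gemin8 (7.91 fold) were marked in H3.3WT alone.

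Genes of the snRNP proteins themselves were mostly marked. Of 7 genes for Sm proteins, the ring around the RNA, 6 were marked in each list, with Snrpe at 10.0 and 7.04 fold, Snrpg at 5.42 and 10.3 fold and Snrpd3 at 9.45 and 7.21 fold. Of 10 genes for proteins of single snRNPs 7 were marked in H3.3WT and 9 in H3.3K27M. Snrpc, for a U1 protein, had 18.8 and 20.4 fold, the highest H3.3K27M value of the 61 genes. Zcrb1 and Snrnp35, for proteins of the U11/U12 snRNP, had 14.7 and 8.71 fold and 7.37 and 10.6 fold. The folds at these genes overlapped those at the snRNA genes in both lists.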

How the data were processed

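CBFA2T2 ChIP-seq peak lists of H3.3WT and H3.3K27M cells were used, with groups taken from the labelled genotype and antibody and 1 library each. The submitters' processing notes name Trim Galore for reads, MACS2 for peaks and the build mm10. Versions, aligner and handling of duplicates and of multiply matching reads are not given in the sources used here. Peak names in the deposited lists name a single ChIP library and an input, and no pooling of replicates is stated.

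The fold enrichment, a ratio, and the −log10 q are the authors' caller values and were used as deposited. Peaks were ranked within their own list. Folds of both lists were set side by side and the higher one named, but they were not divided or tested. The deposited score is the −log10 q times 10 without its decimals and was not used further, and the −log10 p was not used either. The smallest −log10 q was 1.33 in H3.3WT and 1.31 in H3.3K27M, so weaker sites were removed before deposit, and a gene can be marked in 1 list and fall short of that level in the other.

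Gene spans came from RefSeq GRCm38.p6, the same assembly as mm10, without strand. A cluster was 2 or more snRNA genes with at most 50 kb between neighbours. Shares carry 95% Wilson intervals (statsmodels 0.14.6), with pandas 2.3.3 and numpy 2.4.6 in python 3.11.15, and the counting was tested on simulated data. With 1 library per genotype no test between genotypes was possible. Members and lists were chosen with earlier results of these data known. Genes are named by class, by highest −log10 q and by nearness to the 250 bp limit, and the other marked genes were added after their values were seen. Alternatives were other distances, thresholds, overlaps and gaps, and the inclusion of scaffold genes.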

Additional observations from a re-analysis of the deposited data

How the results depend on the processing

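Of 80 values under alternative settings, 69 were within 1.5 times of the value reported and 11 were not. With the summit required inside the gene, 20 genes were marked in H3.3WT and 24 in H3.3K27M, 14 in both, 6 in H3.3WT only and 10 in H3.3K27M only. The other 6 concern the small counts of genes marked in 1 list. The count in H3.3WT only was 2 with summits within 500 bp and also with both lists reduced to equal size. It was 0 without summits within 1 kb of a protein-coding gene end, and 0 when the other list must have no summit within 1 kb. The count in H3.3K27M only was 4 with summits within 1000 bp and 1 with peaks of at least 5 fold. Over all settings the marked genes numbered 20 to 50 (H3.3WT) and 24 to 53 (H3.3K27M), clusters with 2 or more marked genes 8 to 10, and marked genes of the protein list 36 to 48 and 34 to 50. Counting the 7 scaffold genes was an alternative chosen after seeing the data.

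No replicate was left out, with 1 library per genotype, and no scaling was involved. No paired analysis was possible because each group has 1 library. The depth of the libraries is unknown, and sites under the authors' threshold are not listed. Sharing of reads between near-identical copies was not tested. Motif counts are given for 2 windows only, since sequences of the other snRNA genes were not used here.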

Other observations

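Other short non-coding RNA genes, not typed as snRNA, were also read. Rpph1, the RNA of RNase P, had a CBFA2T2 peak of 5.53 fold in H3.3WT against 9.05 in H3.3K27M. Rmrp, the RNA of RNase MRP, had 4.199 and 5.13 fold, and Rn7s1, an RNA of the signal recognition particle, had 5.22 and 5.44 fold. Of the Y RNAs, which bind the Ro protein, Rny1 had 4.42 and 5.65 fold and Rny3 had 5.57 fold in H3.3WT with the nearest H3.3K27M summit 6457 bp away. Rn7s2 and the Rpph1-like genes Rprl1, Rprl2 and Rprl3 had no summit within 250 bp in either list. Terc, the telomerase RNA, which lies inside the chromosome 3 snRNA cluster, was 12149 bp from the nearest H3.3WT summit and 12236 bp from the nearest H3.3K27M summit.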
